A study of Mus musculus with 4 samples.

Results

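Chromosome 19 is the smallest mouse autosome, and in colorectal tumour organoids it carried more ChIP-seq peaks per megabase than any other autosome for KMT9alpha, KMT9beta and the histone mark H4K12me1. The peaks described here are all peaks of the 3 deposited lists that lie on chromosome 19 of the mm10 build, whatever their score. They number 1708 of the 26227 KMT9alpha peaks, 5417 of the 90473 KMT9beta peaks and 5284 of the 60409 H4K12me1 peaks, or 12409 of 177109 in all. They made up 6.65%, 6.02% and 8.80% of the autosomal peaks of these lists, on 2.43% of the known autosomal bases. The chromosome was chosen because its density was already known to be high, so its density is a description without a test.

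The chromatin came from organoids, cell cultures that grow as small hollow epithelial bodies in a gel, derived from a mouse colorectal tumour that azoxymethane with dextran sulfate sodium had induced (AOM/DSS). The immunoprecipitated libraries, 1 each with an antibody against KMT9alpha, KMT9beta or H4K12me1, were all labelled clone 3 at passage 14, so they stand for 1 tumour clone. The treatment text of all samples names both 1 µM tamoxifen and vehicle and does not say which these libraries received, and the genotype is given as NA. An input library was also sequenced and is not analysed here, so no peak count below is set against the amount of DNA of its chromosome, and whether this tumour clone carries extra copies of chromosome 19 was not tested. With 1 library per antibody no difference has a replicate check, and the depth of the libraries is unknown. Intervals are exact 95% intervals that cover counting error only, and neighbouring peaks are not independent of each other.

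KMT9 is a methyltransferase of 2 subunits. KMT9alpha, encoded by N6amt1, holds the catalytic site, and KMT9beta, encoded by Trmt112, is the partner that stabilises it. The enzyme is known to place a single methyl group on lysine 12 of histone H4, a mark written H4K12me1 that is found at gene starts. Most gene starts in mammals lie in stretches rich in the dinucleotide CpG, which is rare elsewhere in the genome. Trmt112 is itself a gene of chromosome 19 and carried 1 KMT9alpha, 2 KMT9beta and 1 H4K12me1 peak.

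The 3 lists met at 1197 sites of chromosome 19, where a peak of each shared at least 1 base, 575 of them within 1 kb of the start of a protein-coding gene and 622 elsewhere. The 4 stretches below show what such sites look like in sequence. They are the centres of the sites with the highest mean rank of the authors' scores, 2 at promoters and 2 elsewhere, read on the plus strand of GRCm38.p6 (mm10) from the RefSeq genome, with CpG dinucleotides in capitals.
Kazald1 promoter, chr19:45074942-45075142: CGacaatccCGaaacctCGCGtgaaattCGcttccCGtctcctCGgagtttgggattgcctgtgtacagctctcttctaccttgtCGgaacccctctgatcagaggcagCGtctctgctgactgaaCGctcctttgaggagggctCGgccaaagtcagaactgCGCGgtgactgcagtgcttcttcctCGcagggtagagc
Lrfn4 promoter, chr19:4615864-4616064: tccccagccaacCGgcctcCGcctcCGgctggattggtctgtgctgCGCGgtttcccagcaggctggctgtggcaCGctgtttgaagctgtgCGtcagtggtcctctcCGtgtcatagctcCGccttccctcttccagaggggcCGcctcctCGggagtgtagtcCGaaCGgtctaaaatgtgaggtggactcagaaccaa
Stn1 intron, chr19:47511081-47511281: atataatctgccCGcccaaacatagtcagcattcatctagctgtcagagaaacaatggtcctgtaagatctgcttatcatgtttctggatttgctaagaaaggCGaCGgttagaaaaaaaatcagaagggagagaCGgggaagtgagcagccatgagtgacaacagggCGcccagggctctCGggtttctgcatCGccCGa
Site near Frmd8os, chr19:5847974-5848174: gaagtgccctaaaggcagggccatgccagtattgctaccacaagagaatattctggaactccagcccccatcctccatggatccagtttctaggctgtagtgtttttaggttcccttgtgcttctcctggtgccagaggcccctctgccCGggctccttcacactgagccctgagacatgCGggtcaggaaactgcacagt

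The Kazald1 stretch, 199 bp from a start of this gene for a secreted Kazal-domain protein, held 14 CpGs, with a KMT9alpha score of 3149.5, a KMT9beta score of 638.6 and an H4K12me1 score of 432.04. The Lrfn4 stretch, 297 bp from a start of this synaptic adhesion gene and inside an intron of Pcx, the pyruvate carboxylase gene, held 13 CpGs and scores of 3100, 2318.16 and 775.1 for the same 3 antibodies. No KMT9beta peak of chromosome 19 scored higher than the one at Lrfn4. A KMT9alpha score of 3100, here and below, is shared by many peaks, and it was the upper quartile of the KMT9alpha promoter peaks of chromosome 19. The Stn1 stretch lay in an intron of this telomere maintenance gene, 2408 bp from its nearest start, and still held 8 CpGs, with scores of 3188.24, 684.16 and 178.35. The last stretch held 2 CpGs. It lay 15608 bp from the nearest protein-coding start, that of Frmd8, and 434 bp from a start of the antisense transcript Frmd8os. Its KMT9alpha peak reached Frmd8os, the nuclear long non-coding RNA gene Neat1 and part of Frmd8 itself, among others. KMT9alpha scored 3100 there, KMT9beta 633.36 and H4K12me1 329.85. Of the 2 promoter and 2 other stretches, the promoters had the more CpGs.

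Per megabase of known sequence, chromosome 19 held 29.3 KMT9alpha peaks and the 18 other autosomes together 10.3, a density 2.86-fold higher (2.72 to 3.003). For KMT9beta the densities were 93.1 on chromosome 19 and 36.2 on the other autosomes, 2.57-fold higher (2.50 to 2.65). H4K12me1 differed most, with 90.8 peaks per megabase on chromosome 19 against 23.4 elsewhere, 3.87-fold higher (3.77 to 3.99). The next autosome in order was chromosome 5 for KMT9alpha, at 24.2 per megabase, chromosome 11 for KMT9beta, at 60.2, and chromosome 5 for H4K12me1, at 44.0. Chromosome 19 was therefore 1.21-fold, 1.55-fold and 2.06-fold above its nearest autosome. Measured as bases under peaks, KMT9alpha covered 2.82% of chromosome 19 and 1.09% of the other autosomes, KMT9beta 14.5% and 4.29%, and H4K12me1 8.03% and 1.76%.

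Chromosome 19 is rich in genes, with 12.4 protein-coding genes per megabase against 8.59 on the other autosomes, the third highest value of the autosomes, and its GC content was 42.7% against 41.9%. Peaks that touch a promoter, taken as the 1 kb before and after each start that GENCODE gives a protein-coding gene, were therefore counted apart and per megabase of promoter. At promoters chromosome 19 held 624 KMT9alpha, 954 KMT9beta and 1006 H4K12me1 peaks, which was 1.57-fold (1.44 to 1.70), 1.36-fold (1.27 to 1.45) and 2.19-fold (2.06 to 2.34) the density at promoters of the other autosomes. Against the nearest single autosome at promoters, chromosome 19 was 1.27-fold above chromosome 5 for KMT9alpha and 1.73-fold above chromosome 15 for H4K12me1. For KMT9beta it was only 1.08-fold above chromosome 11, at 311 against 288 peaks per megabase of promoter, and chromosome 15 had 286. Outside promoters chromosome 19 held 1084, 4463 and 4278 peaks. The densities there were 19.7 KMT9alpha peaks per megabase on chromosome 19 against 5.41 on the other autosomes (3.63-fold), 80.9 KMT9beta peaks against 28.4 (2.85-fold) and 77.6 H4K12me1 peaks against 18.3 (4.24-fold). For KMT9alpha, chromosome 5 came close outside promoters, with 17.99 peaks per megabase, and chromosome 11 was next with 7.78. For KMT9beta and H4K12me1, chromosome 19 was 1.66-fold and 2.08-fold above chromosome 5, the nearest autosome.

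**Figure D1:**
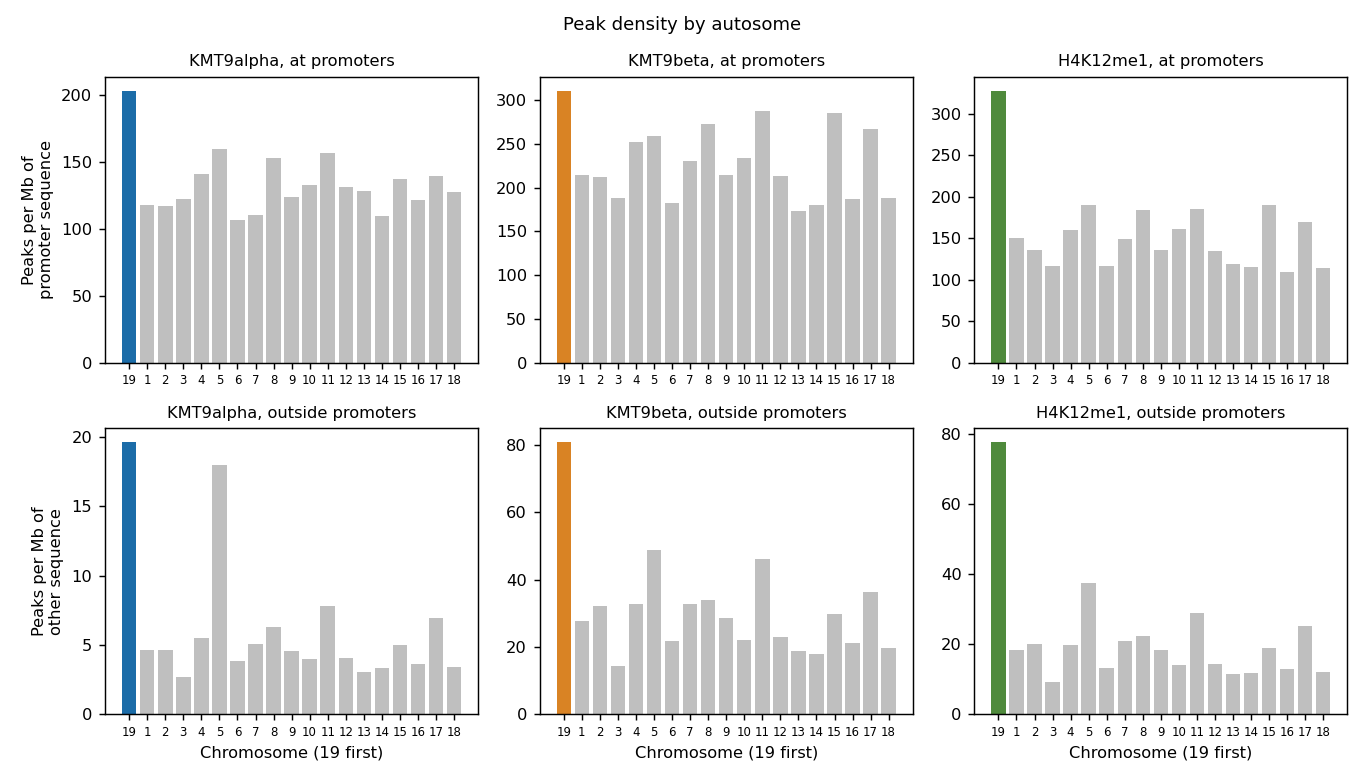
Peaks per megabase of promoter sequence (upper row) and of all other known sequence (lower row) for KMT9alpha, KMT9beta and H4K12me1, with 1 bar per autosome, chromosome 19 first and in colour and the others in grey. Chromosome 19 has the highest bar in every panel. Chromosome 5 is close behind for KMT9alpha outside promoters (19.7 against 17.99), and chromosome 11 for KMT9beta at promoters (311 against 288).

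The lowest scores at which peaks were listed differed between chromosomes, which bears on these counts. KMT9alpha peaks with a score under 150 made up 17.2% of the list on chromosome 19 and 38.6% on chromosome 5, against 1.24% to 5.90% on the other autosomes taken singly. H4K12me1 peaks under 65 made up 24.6% on chromosome 19, 14.4% on chromosome 5 and 7.96% to 10.7% on the rest. For KMT9beta the share under 65 was 23.3% on chromosome 19 and between 24.0% and 31.9% on the autosomes other than chromosome 5. A common score of at least 200 for KMT9alpha and 100 for KMT9beta and H4K12me1, set after seeing these shares, was therefore applied to all chromosomes. It left 969, 2580 and 1963 peaks on chromosome 19, and the fold over the other autosomes was 2.22 (2.08 to 2.37) with KMT9alpha, 3.02 (2.90 to 3.14) with KMT9beta and 5.19 (4.95 to 5.44) with H4K12me1. Outside promoters the folds were 2.83 (2.57 to 3.11), 3.69 (3.52 to 3.87) and 5.64 (5.32 to 5.97). The KMT9alpha fold was thus smaller, and the folds of KMT9beta and H4K12me1 larger, with a common score than with all peaks.

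By score the 3 lists went different ways. When the autosomal peaks of a list were divided into 4 equal classes by score, KMT9alpha peaks outside promoters were 4.84-fold denser on chromosome 19 in the lowest class, then 3.13-fold and 2.50-fold, and 1.11-fold (0.504 to 2.14) in the highest, which held only 9 peaks of chromosome 19. KMT9beta ran the other way, with 2.41-fold, 2.40-fold, 2.90-fold and 4.46-fold from the lowest to the highest class. H4K12me1 was high at both ends, with 5.60-fold, 2.74-fold, 3.22-fold and 5.93-fold. Among promoter peaks KMT9alpha was 3.61-fold denser on chromosome 19 in its lowest class, then 2.18-fold and 1.28-fold, and 1.29-fold in its highest. KMT9beta promoter peaks were at the level of the other autosomes within counting error in the lower 3 classes, at 0.92-fold (0.72 to 1.17), 1.004-fold (0.82 to 1.22) and 0.87-fold (0.73 to 1.03), and were 1.77-fold denser in the highest. H4K12me1 promoter peaks stood at 1.96-fold, 0.92-fold (0.73 to 1.14), 1.33-fold and 3.52-fold from the lowest to the highest class. The median score of promoter peaks was 1056 on chromosome 19 and 1923 on the other autosomes for KMT9alpha, 233 and 146 for KMT9beta, and 136 and 87.9 for H4K12me1. For KMT9beta and H4K12me1 these medians lay above that of every other autosome (highest 162 and 94.8), and for KMT9alpha below that of every other autosome (lowest 1318). With only the peaks that reach the median score of the list, KMT9alpha was 1.86-fold denser on chromosome 19 in all and 2.33-fold outside promoters. Promoter peaks of KMT9beta and H4K12me1 were also wider, with medians of 1821 bp on chromosome 19 against 1290 bp, and 1068 bp against 677 bp.

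Outside promoters, exons, introns and the space between genes all held more peaks per megabase on chromosome 19. Of the KMT9alpha peaks of chromosome 19 that touch no promoter, 131 had their midpoint in an exon, 486 in an intron and 467 between genes, and these were 4.06-fold, 3.46-fold and 3.44-fold denser than on the other autosomes. For H4K12me1 the folds were 3.10 in exons, 4.04 in introns and 4.30 between genes. KMT9beta was lowest in exons, at 1.70-fold (1.53 to 1.89), and reached 2.62-fold in introns and 3.16-fold (3.02 to 3.31) between genes. By distance of the peak midpoint from the nearest protein-coding start, the folds within 1 kb were 1.51 for KMT9alpha, 1.26 for KMT9beta and 2.02 for H4K12me1. Beyond 100 kb they were 2.23 (1.69 to 2.90), 3.28 (2.97 to 3.61) and 3.67 (3.27 to 4.12), from 58, 440 and 314 peaks of chromosome 19. KMT9alpha was farthest above the other autosomes between 1 and 10 kb, at 3.43-fold, KMT9beta beyond 100 kb and H4K12me1 between 10 and 50 kb, at 3.99-fold.

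Along the chromosome, peaks outside promoters were counted by midpoint in 58 bins of 1 Mb with at least 0.5 Mb of known sequence. The bins held 0 to 73 KMT9alpha peaks with a median of 10, 5 to 199 KMT9beta peaks with a median of 60, and 3 to 214 H4K12me1 peaks with a median of 49. The number of KMT9alpha peaks per megabase was above the median bin of the other autosomes in 50 of 58 bins, 86.2%, where 50.9% of all autosomal bins were. KMT9beta was above it in 53 bins, 91.4%, where 51% of all autosomal bins were. H4K12me1 was also above it in 53 bins, where the share of all autosomal bins was 51%. The median bin of chromosome 19 held 10.2 KMT9alpha peaks per megabase against 2.08 for the other autosomes, 62.3 against 13.1 for KMT9beta and 52.1 against 8.14 for H4K12me1. Without the densest 10% of the bins of every chromosome the folds were 4.42, 3.55 and 5.15, all higher than over all bins.

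Peaks were also less gathered in a few bins than elsewhere. The densest 10% of the bins held 34.1% of the KMT9alpha peaks of chromosome 19 outside promoters, against 33.7% to 60.9% on the other autosomes. For KMT9beta they held 24.3%, against 31.9% to 46.1%, and for H4K12me1 26.6%, against 33.3% to 47.2%. KMT9beta and H4K12me1 were thus spread over more of chromosome 19 than over any other autosome, and KMT9alpha lay near the lower end of the range.

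The density still varied widely along the chromosome. The part from 3 to 10 Mb held 51.9 KMT9alpha, 130 KMT9beta and 152 H4K12me1 peaks per megabase outside promoters, which was 9.59-fold, 4.599-fold and 8.33-fold the value of the other autosomes. The part from 40 to 50 Mb held 30.9, 129 and 128, or 5.72-fold, 4.57-fold and 7.02-fold. The block from 30 to 40 Mb, the lowest full block of 10 Mb for KMT9alpha and H4K12me1, held 7.15, 43.4 and 36.0 peaks per megabase, which was 1.32-fold, 1.53-fold and 1.97-fold the other autosomes. For KMT9beta the block from 10 to 20 Mb stood as low, also at 43.4 peaks per megabase and 1.53-fold. No block of 10 Mb was therefore below the other autosomes in any list. The 3 densest bins for KMT9alpha lay at 5 to 6, 6 to 7 and 10 to 11 Mb, with 73, 57 and 66 peaks. The bin at 6 to 7 Mb was also the densest per megabase for KMT9beta, with 147 peaks, and for H4K12me1, with 190 peaks. Across the 58 bins the counts of the 3 lists were correlated with each other (Pearson r from 0.88 to 0.96) and with GC content (r was 0.90 with KMT9alpha, 0.89 with KMT9beta and 0.94 with H4K12me1). These values describe bins of 1 chromosome that share libraries and base composition.

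Because GC content and gene number differ along the chromosome, the bins were set beside bins of like sequence on other autosomes. Bin counts of the autosomes other than 5 and 19 were fitted by Poisson regression with terms for GC content and its square, protein-coding genes and repeats, and the fit was applied to chromosome 19. Chromosome 19 held 3.71 times the modelled number of KMT9alpha peaks (3.49 to 3.94), 2.58 times the number of KMT9beta peaks (2.51 to 2.66) and 3.92 times the number of H4K12me1 peaks (3.80 to 4.04). The fitted autosomes ranged from 0.75 to 1.39 for KMT9alpha, from 0.88 to 1.42 for KMT9beta and from 0.86 to 1.503 for H4K12me1, with chromosome 1 highest in each, and chromosome 5 stood at 2.86, 1.30 and 1.57. With the common score the 3 values of chromosome 19 were 2.56, 3.41 and 5.53, and with only the peaks that reach the median score KMT9alpha was at 2.04.

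This ratio of observed to modelled peaks was over 1 in nearly every bin. It was so in 54 of 58 bins for KMT9alpha, 57 for KMT9beta and 57 for H4K12me1, and in 53 bins for all 3 at once. The median bin of the fitted autosomes had ratios of 0.84, 0.96 and 0.93, and the upper quartile was 1.39, 1.29 and 1.31. For KMT9alpha some of these bins of chromosome 19 held few peaks, such as 1 against 0.64 modelled from 19 to 20 Mb. A ratio of 2 or more was found in 42 bins for KMT9alpha, where 14.1% of all autosomal bins reached it. For KMT9beta 46 bins reached it, where the share of all autosomal bins was 8.07%. For H4K12me1 55 bins did, where the share was 10.1%. In 37 bins all 3 lists were at 2 or more, and the share of all autosomal bins was not counted for all 3 together. With the common score the ratio was over 1 in 47 bins for KMT9alpha, 57 for KMT9beta and 55 for H4K12me1. For these last counts, and for all counts of bins over 1, the share of all autosomal bins was not counted. The 5 bins at or under the model in any list were those from 22 to 23, 31 to 32, 48 to 49, 49 to 50 and 50 to 51 Mb, which held 1, 3, 1, 0 and 1 protein-coding genes and at most 2 KMT9alpha peaks outside promoters. The bin from 50 to 51 Mb was the single bin under the model for KMT9beta and H4K12me1, with 5 and 3 peaks.

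**Figure D2:**
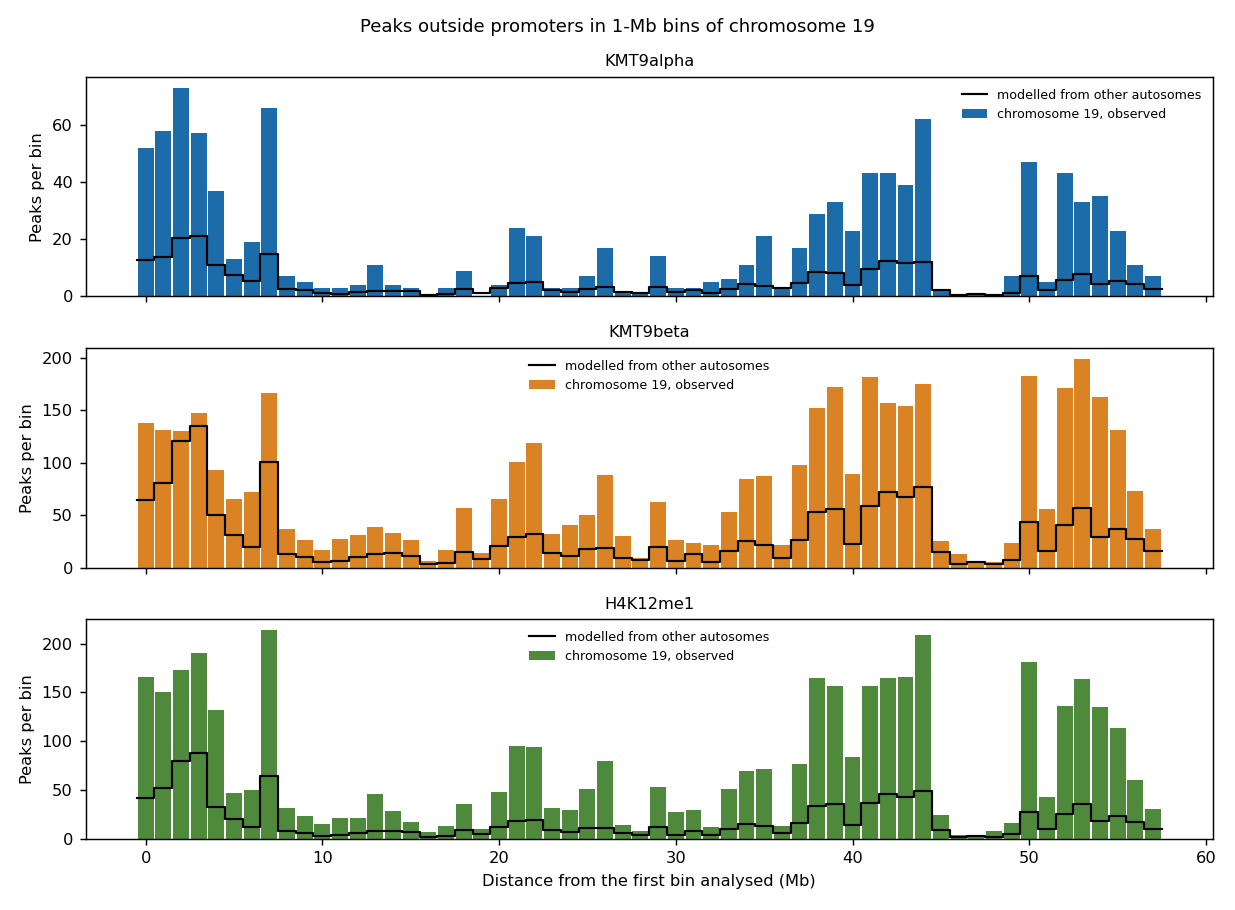
Peaks outside promoters in the 58 bins of 1 Mb along chromosome 19 for KMT9alpha, KMT9beta and H4K12me1 (bars), by distance in Mb from the first bin, with the number modelled from the GC content, genes and repeats of the other autosomes (black line). The bars rise and fall with the line and stand above it in 54, 57 and 57 of 58 bins. The median bin of the fitted autosomes stood at 0.84, 0.96 and 0.93 times its modelled number.

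In blocks of 10 Mb the ratio lay between 2.85 (30 to 40 Mb) and 5.14 (50 to 60 Mb) for KMT9alpha, and the last bin, from 60 to 61 Mb, stood at 2.58. H4K12me1 lay between 2.77 (3 to 10 Mb) and 5.22 (50 to 60 Mb). KMT9beta lay between 1.55, in the gene-rich part from 3 to 10 Mb, and 3.78 (50 to 60 Mb). The block from 50 to 60 Mb, which held 53 protein-coding genes against 227 from 3 to 10 Mb, thus had the highest ratio in all 3 lists. Its highest bin was that from 57 to 58 Mb, with 5 genes, where 35 KMT9alpha, 163 KMT9beta and 135 H4K12me1 peaks gave ratios of 8.002, 5.59 and 7.53.

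Gene number alone gave the same picture of an excess in all kinds of bin, with a different slope for each list. In the 12 bins of chromosome 19 with 0 to 2 protein-coding genes, KMT9alpha was 2.05-fold (1.39 to 2.91) denser than in such bins of the other autosomes, KMT9beta 3.06-fold (2.69 to 3.47) and H4K12me1 3.92-fold (3.38 to 4.52). In the 10 bins with 20 or more genes the folds were 3.26 (2.93 to 3.63), 1.84 (1.73 to 1.96) and 3.22 (3.04 to 3.42). The KMT9beta fold was thus lower in bins with more genes, that of KMT9alpha was higher in bins with 10 genes or more than in those with fewer, and that of H4K12me1 differed least between classes.

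**Figure D3:**
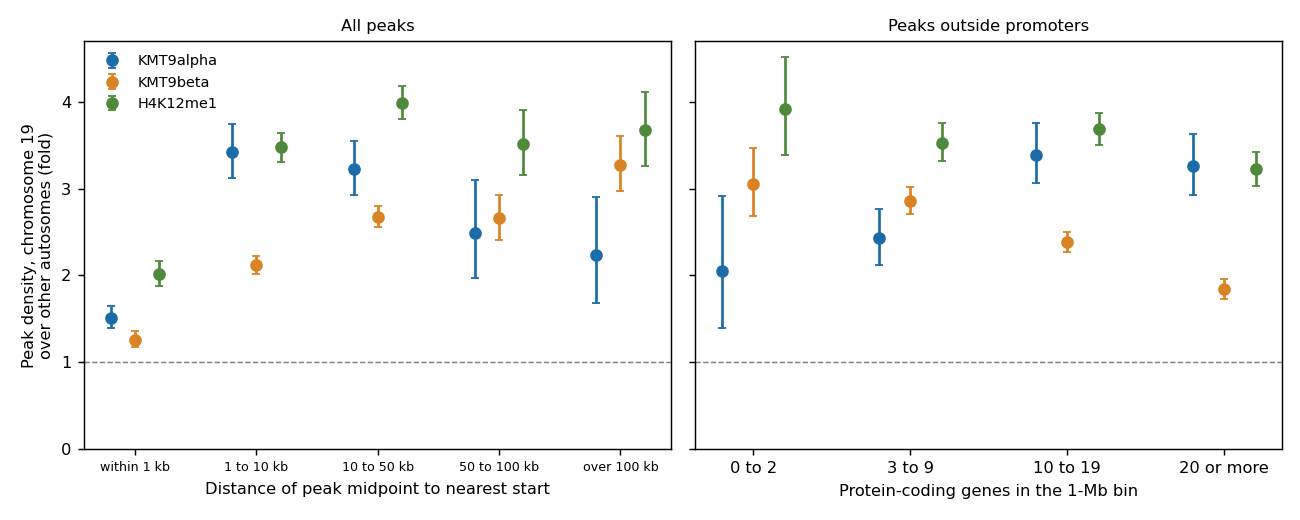
Density of peaks on chromosome 19 over that on the other autosomes (fold), by distance of the peak midpoint from the nearest protein-coding start for all peaks (left) and by the number of protein-coding genes in the 1-Mb bin for peaks outside promoters (right). Points are folds for KMT9alpha, KMT9beta and H4K12me1, bars are exact 95% intervals for counting error, and the dashed line marks 1, which no interval reaches.

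Chromosome 19 has 719 protein-coding genes, and their promoters were compared with those of the 20088 genes of the other autosomes. KMT9alpha was at 488 promoters of chromosome 19, 67.9% (64.3 to 71.3), where the share over all autosomes was 56.7%. KMT9beta was at 571, 79.4% (76.3 to 82.3), where the share over all autosomes was 69.6%. H4K12me1 was at 535, 74.4% (71.05 to 77.6), where the share over all autosomes was 50.4%. All 3 were at 451 promoters, 62.7% (59.1 to 66.3), where the share over all autosomes was 40%. Promoters of the other autosomes with the same mix of CpG content had KMT9alpha in 57.2%, KMT9beta in 69.9%, H4K12me1 in 50.1% and all 3 in 39.8%. The difference was thus 24.3 percentage points for H4K12me1 and 10.7 and 9.48 for the subunits. For H4K12me1 and for all 3, no other autosome reached the share of chromosome 19, the highest being 60.3% and 49.4%. For KMT9beta the highest other autosome had 79.4%, the same as chromosome 19 to 3 digits. For KMT9alpha the highest other autosome had 65.5%, which lay within the counting interval of chromosome 19.

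The mark was present at most promoters that held the enzyme. Of the 483 genes of chromosome 19 with both subunits at the promoter, 451 had H4K12me1, 93.4% (90.8 to 95.4), against 72.4% (71.5 to 73.2) on the other autosomes. Both subunits without the mark were left at 32 genes, 4.45%, against 14.9% elsewhere, and the lowest other autosome had 10.8%. None of the 3 was found at 131 genes, 18.2% (15.5 to 21.2), against 26.4% on the other autosomes together, where the lowest single autosome had 16.1%. Those 131 all had promoters of the lowest or second lowest of 5 CpG classes, and no gene of the 3 higher classes was without a promoter peak. In the highest class 94.5% of chromosome 19 promoters had all 3, against 70.99% on the other autosomes. In the middle class the shares were 77.5% and 42.1%, and in the lowest 10.49% and 5.50%.

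**Figure D4:**
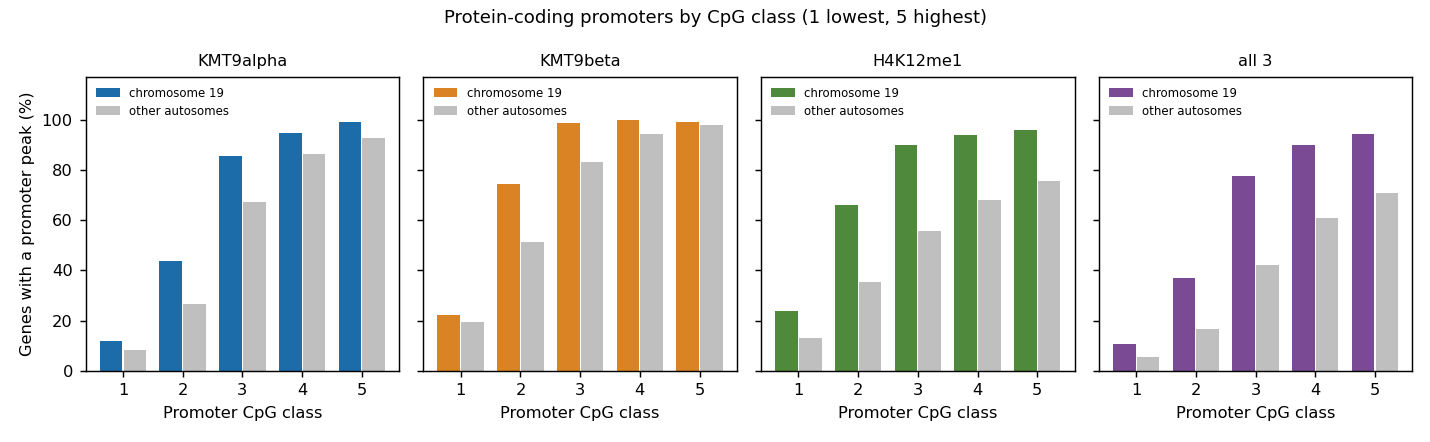
Share of protein-coding genes with a promoter peak (%) in 5 classes of promoter CpG content, from 1 (lowest) to 5 (highest), for KMT9alpha, KMT9beta, H4K12me1 and all 3 together, with chromosome 19 in colour left of the other autosomes in grey. Chromosome 19 is higher in every class, and for all 3 the shares in the middle class are 77.5% and 42.1%.

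Peaks of chromosome 19 also met peaks of the other lists more often. KMT9beta overlapped 83.5% (81.6 to 85.2) of the KMT9alpha peaks of chromosome 19 and 75.5% (74.9 to 76.0) of those of the other autosomes. H4K12me1 overlapped 67.2% (64.9 to 69.4) of the KMT9alpha peaks of chromosome 19, against 49.3%, and 53.1% (51.8 to 54.5) of its KMT9beta peaks, against 32.3%. At promoters 85.1% of the KMT9alpha peaks carried the mark on chromosome 19 and 59.7% on the other autosomes, whose highest value was 67.1%. Away from promoters the shares were 56.9% and 39.2%, and chromosome 5 had 57.6%. Seen from the mark, 69.8% of the H4K12me1 peaks of chromosome 19 overlapped KMT9beta, against 54.8%, while 22.5% (21.4 to 23.7) overlapped KMT9alpha, against 22.2% (21.9 to 22.6). This last difference lay within the counting interval. The peaks of chromosome 19 were also denser and, for KMT9beta and H4K12me1, wider, and the part of this in the overlaps was not tested.

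The genes with most peaks were mostly long ones. Sh3pxd2a, which encodes the scaffold of invasive cell protrusions known as TKS5, held 37 KMT9alpha, 61 KMT9beta and 87 H4K12me1 peaks in 204 kb (chr19:47260174-47464401), counted over the gene and 1 kb before its start. It had the most KMT9alpha and the most H4K12me1 peaks of the chromosome, and 112 of its 185 peaks reached the median score of their list. Ablim1, an actin-binding protein gene of 282 kb, held 142 peaks in all and the most KMT9beta peaks, 69. Atrnl1, a gene of 522 kb, held 120, Slit1, which encodes an axon guidance ligand, held 118, and Nrxn2, which encodes a presynaptic adhesion protein, held 115. Macrod1, which encodes an enzyme that removes ADP-ribose, followed with 110, of which 20 were KMT9alpha peaks and 65 H4K12me1 peaks. All 6 carried peaks of all 3 lists at the promoter.

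Of 10 genes of Wnt signalling, the pathway that drives intestinal stem cells and most colorectal tumours, the long genes Tcf7l2 and Lrp5 were among those with most peaks, while the median of the 10 was 9 peaks, against 7 for all genes of the chromosome. Tcf7l2, which encodes the main DNA-binding partner of beta-catenin in the intestine, held 12 KMT9alpha, 54 KMT9beta and 41 H4K12me1 peaks in 192 kb (chr19:55741820-55933654). At its promoter KMT9alpha scored 3100, KMT9beta 403.19 and H4K12me1 521.24. Its neighbour Vti1a, which encodes a vesicle fusion protein, held 15, 50 and 41. Lrp5, a Wnt co-receptor gene of 102 kb, held 21 KMT9alpha, 29 KMT9beta and 43 H4K12me1 peaks, with promoter scores of 3100, 845.65 and 278.46.

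Per length other genes led. Among genes of 10 kb or more, the pro-apoptotic gene Bad held 16 peaks, or 14.5 per 10 kb of the gene and the 1 kb before its start. Psd, which encodes an activator of the small GTPase ARF6, held 13.1 per 10 kb, Ccdc88b 12.3, Ldb1, which encodes a bridging cofactor of developmental transcription factors, 11.6, and Aldh3b1, an aldehyde dehydrogenase gene, 11.5. Over all 719 genes of chromosome 19 the value was 2.99 per 10 kb, against 1.18 for genes of the other autosomes. By list it was 0.465 against 0.198 for KMT9alpha, 1.25 against 0.599 for KMT9beta and 1.27 against 0.384 for H4K12me1. Of the 100 autosomal genes with most peaks over the 3 lists, 23 were on chromosome 19, which has 3.46% of the genes. The counts by list were 20 for KMT9alpha, 15 for KMT9beta and 32 for H4K12me1. Ranked by peaks per 10 kb, the counts among the top 100 were 19, 5 and 33, and chromosome 19 has 3.30% of the genes of 10 kb or more. The KMT9beta count was thus near that share once length was taken into account. The median gene of chromosome 19 held 7 peaks and that of the other autosomes 3, and no peak of any list was found in 87 genes, 12.1%, against 19.9% elsewhere.

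**Figure D5:**
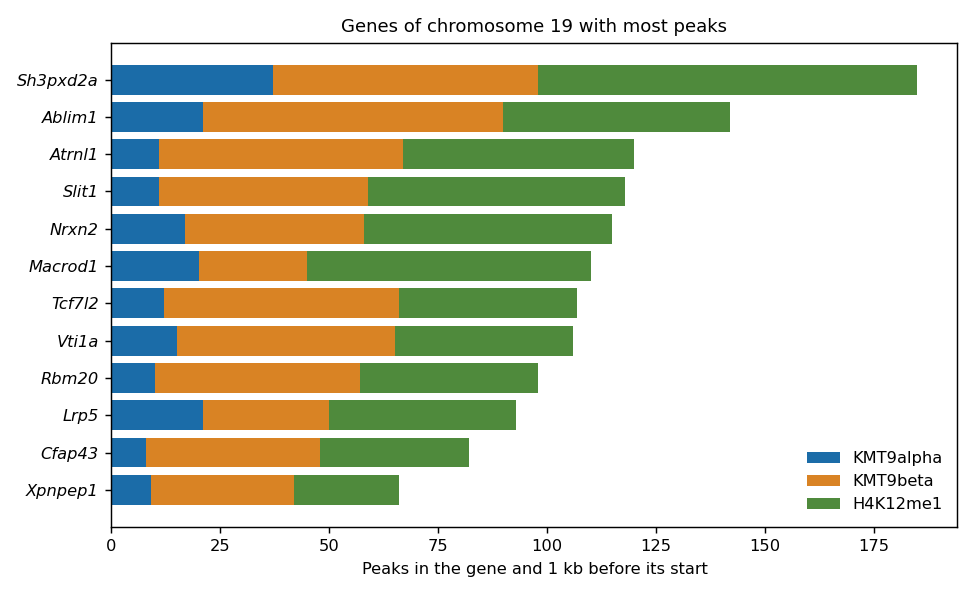
Peaks in the gene and 1 kb before its start for the 12 named genes of chromosome 19 with most peaks, stacked by list (KMT9alpha, KMT9beta, H4K12me1). Sh3pxd2a has 185 peaks and Ablim1 142.

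In the densest bins, the share of genes with all 3 at the promoter was not counted. The genes named here were picked from those with all 3, up to 3 per bin by their number of peaks. From 5 to 6 Mb these included Pcnx3 with 29 peaks, Pacs1, a trafficking adaptor gene, with 26, and Frmd8 with 23. From 6 to 7 Mb they included Nrxn2, the transcription factor gene Batf2 with 25 peaks and the phospholipase gene Plcb3 with 23. From 10 to 11 Mb they included Dagla, which encodes an enzyme that makes an endocannabinoid, with 54 peaks, Syt7, which encodes a calcium sensor of exocytosis, with 53, and the fatty acid desaturase gene Fads2 with 29. The bin from 47 to 48 Mb held Sh3pxd2a, Cfap43, a cilium gene with 82 peaks, and Neurl1a with 51. The KMT9beta-rich bins from 53 to 54 and 56 to 57 Mb held Rbm20, a splicing factor gene with 98 peaks, Xpnpep1 with 66, Mxi1, which encodes an antagonist of MYC, with 40, the collagen-like matrix gene Vwa2 with 32 and Nhlrc2 with 17. Nhlrc2 shares its promoter peaks with the DNA repair gene Dclre1a, so their scores are the same.

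Genes of the chromosome were then grouped by textbook role, and the promoters with all 3 were counted beside 62.7% for all genes of the chromosome. Of 10 Wnt pathway genes, 9 had all 3, among them Frat1 and Frat2, which encode inhibitors of the kinase GSK3, and Lrp5. KMT9beta and H4K12me1 were at all 10. All 10 genes of tumour suppression and growth restraint had the 3, among them the acetyltransferase gene Kat5, the chromatin remodeller gene Hells, which is known to favour growth rather than restrain it, and Lzts2. The Hedgehog inhibitor gene Sufu and the menin gene Men1 are in this group too and are named after the counts were seen. NF-kB and cell death genes had them in 7 of 8, including Nfkb2, which encodes an NF-kB subunit, Bad and the translation inhibitor gene Pdcd4. All 13 chromatin genes had them, including the Polycomb gene Pcgf5 and Btaf1, as did 18 of 19 genes of DNA replication, repair and mitosis, including Banf1 and Ddb1. Respiratory chain and mitochondrial genes had them in 18 of 19, including Cpt1a, which encodes the gatekeeper of fatty acid import into mitochondria, Atad1 and the ribosomal gene Mrpl11. These groups are made largely of genes that most cells use, and their promoter CpG content was not matched in these counts.

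Lipid genes and developmental factors had slightly lower counts. Of 18 genes of lipid and fatty acid metabolism, 15 had all 3, and 17 had H4K12me1. Acsl5 and Asah2, which were named by their KMT9alpha score, had the common value of 3100 at the promoter. The desaturase cluster Fads1, Fads2 and Fads3 had all 3 at each gene and 55 peaks in the genes, and 3 of the 4 stearoyl-CoA desaturase genes did, namely Scd1, Scd2 and Scd3. Of 15 developmental transcription factor genes, 12 had all 3 and all 15 had H4K12me1. Klf9, which encodes a zinc finger factor of differentiation, had a KMT9alpha score of 3100, a KMT9beta score of 813.96 and an H4K12me1 score of 377.79, and the homeobox gene Hhex had 1642.59, 318.32 and 189.86. The detoxification cluster Gstp had all 3 at Gstp1 and Gstp2 of its 3 genes, near-identical copies among which reads may have been divided.

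Clusters of tissue-restricted genes formed the gaps. Of 66 olfactory receptor genes none had all 3 at the promoter, 61 had none of the 3, and 60 had no peak anywhere in the gene, among them Olfr1417 and Olfr1418. Of 15 Cyp2c genes, which encode drug-metabolising cytochromes, 0 had all 3 and 12 had none, including Cyp2c37 and Cyp2c38. Cyp2c39, Cyp2c70 and Cyp2c65, of 57.7, 34.0 and 32.9 kb, were the longest genes of the chromosome without any peak. Of 19 Ms4a genes, most of which are expressed in immune cells, Ms4a15 alone had all 3, with low scores of 202.46, 219.7 and 167.77, and 15 had none, including the B cell gene Ms4a1 and Ms4a12. None of the 6 interferon-induced Ifit genes had all 3, and Ifit3 and Ifit1bl1 had none at the promoter but 1 peak of each list within the gene. Among 4 Lipo genes Lipo3 had all 3, with scores of 165.29, 134.74 and 73.38, and Lipo1 and Lipo4 had none. The promoter CpG ratios of the genes named from these clusters lay between 0.0418 (Cyp2c38) and 0.213 (Ms4a12), apart from Lipo3 at 0.537. Many have near-identical copies, and the sources used here do not say how reads that match several copies were counted. Ratios to the model count the peaks outside promoters of a whole bin, not those of the cluster genes alone. The bin from 12 to 13 Mb, with 39 protein-coding genes, had ratios of 2.33, 2.63 and 3.76, and that from 39 to 40 Mb 1.07, 2.45 and 2.25. For KMT9alpha these rest on 5 peaks against 2.15 modelled and 3 against 2.81.

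The sequence at the midpoints of promoter peaks was poorer in CpG on chromosome 19 than on the other autosomes, while away from promoters the CpG ratios were close. In windows of equal length around the midpoints of promoter peaks, the median ratio of observed to expected CpG was 0.68 on chromosome 19 and 0.79 on the other autosomes for KMT9alpha, 0.37 and 0.53 for KMT9beta, and 0.37 and 0.57 for H4K12me1. At gene starts themselves the median was 0.63 on chromosome 19 and 0.61 over all autosomes. The part of peak width in the difference at promoter peaks was not tested. GGGCGG, the core of the Sp1 motif searched on both strands, was in 47.1% of the KMT9alpha promoter windows of chromosome 19 and 57.7% of those of the other autosomes, where 46.3% of windows of this length at all autosomal gene starts hold it. For KMT9beta the shares were 27.8% and 40.3%, and for H4K12me1 32.0% and 41.7%. CCAAT, the NF-Y box, was in 25.3% and 21.3% of the KMT9alpha promoter windows and in 36.2% of gene starts. It stood in the Lrfn4 stretch given above, and GGGCGG in the Stn1 stretch. CACGTG, the E-box of MYC, was in 6.57% and 6.83% and in 7.53% of gene starts, and CTTTGAT, a core of the motif bound by TCF factors, in 1.92% and 1.43% and in 2.88% of gene starts. Away from promoters the windows of chromosome 19 had a median CpG ratio of 0.253 for KMT9alpha against 0.265, 0.245 for KMT9beta against 0.246 and 0.231 for H4K12me1 against 0.236. CTTTGAT was there in 2.86% of the KMT9alpha windows against 2.94%. GGGCGG was lower on chromosome 19 there too, in 12.5% against 16.5% for KMT9alpha, 8.29% against 12.1% for KMT9beta and 9.63% against 12.1% for H4K12me1.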

How the data were processed

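Per the labels' protocols, ChIP-seq libraries of AOM/DSS tumour organoids were sequenced on an Illumina HiSeq and mapped to mm10 with STAR, while the submitters' processing notes name Bowtie2. The authors deposited 1 peak list per antibody, with positions and a score per peak. The peak names point to MACS. Its version, settings and control, the meaning of the score and the read depth were not given in the sources used here, so the authors' scores were used only to rank or filter peaks within a list. Peak coordinates were used as deposited. They did not overlap within a list.

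Gene models came from GENCODE M21, which is built on GRCm38.p6, the same assembly as mm10. Overlap meant 1 bp or more. Known bases leave out runs of N. The share of a list's peaks, genes or bins has an exact Clopper-Pearson interval, and a fold has a conditional binomial one. The regression had the logarithm of known bases outside promoters as offset. The ratio of observed to modelled peaks has an exact Poisson interval, with the modelled number taken as fixed. CpG classes are quintiles of the observed to expected ratio within 1 kb of gene starts, used for direct standardisation. No p-value was computed because each antibody has 1 library.

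The named genes were, per list and over the 3 lists, the 5 with most peaks, the 5 of at least 10 kb with most peaks per 10 kb, up to 3 genes with all 3 at the promoter in each of the 3 densest bins per list, Trmt112, per gene list up to 3 with all 3 by KMT9alpha score and up to 2 with none, and the 3 longest without a peak. The members and lists were chosen with earlier results of these data known. The alternatives changed score thresholds, promoter windows, bins, overlap, gene assignment and the fitted or compared autosomes. The common score and a fit without chromosome 1 were added after the data had been seen. The density, bin and model steps were run on simulated peaks placed at random along the chromosomes, without a split by promoter, and the other steps were not. The tools were statsmodels 0.14.6 for the regression, scipy 1.17.1 for the intervals, pandas 2.3.3 and numpy 2.4.6 for the counts and matplotlib 3.10.9 for the plots, under Python 3.11.15. Some genes that the naming rule or the lists cover are not reported here by name.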

Additional observations from a re-analysis of the deposited data

How the results depend on the processing

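Over 80 combinations of a result with another setting, 31 values moved by less than their counting interval (for a count, 1.5 times), 49 by more, and 0 turned round. In the settings tried for peak density, bins, the model and promoters, chromosome 19 stayed above the other autosomes; those for overlap and for the gene with most peaks were run on chromosome 19 alone. Limits are the single library per antibody, the amount of chromosome 19 DNA, which was not examined, the unknown depth, the score that differs in its lowest values between chromosomes, and the absence of a test. No paired analysis was possible because each antibody has 1 library. Values are given for KMT9alpha, KMT9beta and H4K12me1 in this order unless named. With only the peaks that reach the median score of their list, the folds of density were 1.86, 2.92 and 4.12, outside promoters 2.33, 3.49 and 4.38, the ratios to the model 2.04, 3.21 and 4.12, and the promoter differences 6.12, 14.0 and 32.1 percentage points. With a common score (added after seeing the data) the folds were 2.22, 3.02 and 5.19, and outside promoters 2.83, 3.69 and 5.64. Against the other autosomes without chromosome 5 the folds were 3.15, 2.68 and 4.12, and outside promoters 4.30, 2.999 and 4.55. By bases covered they were 2.60, 3.37 and 4.55, and outside promoters 3.57 for KMT9beta and 4.71 for H4K12me1. With as many peaks per list as the shortest has, KMT9beta stood at 3.24 and 4.18 outside promoters, and H4K12me1 at 4.40 and 4.69; for KMT9alpha, the shortest list, this setting changes nothing. Promoters of 5 kb gave 2.99 outside promoters for KMT9beta. A model with gene number alone gave 3.33, 2.33 and 3.51. The model with all its terms, fitted on all autosomes but 19, gave 3.16 for KMT9alpha and 3.73 for H4K12me1. Fitted without chromosomes 1, 5 and 19 (added), it gave 2.66 for KMT9beta and 4.06 for H4K12me1. Over all peaks, promoters included, 74.1% of bins were above the median bin of the other autosomes for KMT9alpha. On chromosome 19, with an overlap of at least 50% of the shorter peak, H4K12me1 met 60.3% of KMT9alpha and 50.5% of KMT9beta peaks, and KMT9beta met 66.5% of H4K12me1 peaks. With only the peaks that reach the median score, KMT9beta met 92.1% of KMT9alpha peaks, and H4K12me1 met 75.4% of KMT9alpha and 51.5% of KMT9beta peaks. Sh3pxd2a then held 112 peaks. The cause of these shifts was not tested.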
